A study of Mus musculus with 6 samples.

Results

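The Schlafen genes form a family that expanded in the mouse and is known as a set of interferon-induced genes of immune cells. A set of 7, Slfn1, Slfn2, Slfn3, Slfn4, Slfn5, Slfn8 and Slfn9, were taken by symbol from the deposited table of 21959 genes, and all 7 passed the filter on low counts, which left 10177 tested genes. The RNA-seq data come from bone marrow-derived macrophages (BMDMs) of wild-type genotype, mouse primary macrophages grown in culture from bone marrow. All cells received equal parts of fresh medium and medium in which alveolar macrophages, the resident macrophages of the air spaces of the lung, had been kept for 48 h, and were collected after 24 h. Mice of 8 to 12 weeks had supplied the alveolar macrophages, which had been separated by HTR2C, the serotonin receptor 2C. In 3 libraries (P1, P2 and P3) the medium came from HTR2C-positive cells and in the other 3 (N1, N2 and N3) from HTR2C-negative cells. Both groups had thus seen alveolar macrophage medium, and no library of cells without it was analysed here. Nothing in the labels ties the sample numbers to separate cultures, mice or lots of medium, so each p-value reflects the spread among these libraries, and that spread may be technical.

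Mouse Schlafen proteins are sorted by length into a short group (Slfn1 and Slfn2), an intermediate group (Slfn3 and Slfn4) and a long group (Slfn5, Slfn8 and Slfn9), the last with an additional helicase-like domain. Several family members bind or cut transfer RNA, and members are best known for restraining the growth of lymphocytes and for their induction by type I interferon in macrophages, where interferon signalling acts on interferon-stimulated response elements (ISRE). The comparison asked how their transcripts in the receiving macrophages differed between the 2 media.

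The 7 genes lie in 1 cluster on mouse chromosome 11. On GRCm39, the build of the deposited table, it spans 82842175 to 83105980, a stretch of 263.8 kb that starts with Slfn5 and goes on through Slfn9, Slfn8, Slfn2, Slfn1, Slfn4 and Slfn3. Slfn8 and Slfn9 are on the minus strand and the other 5 on the plus strand. The reference promoters of RefSeq (build GRCm38.p6, 250 bases before to 50 after a start) held entries for all 7, with 2 starts for Slfn8. The ISRE core, 2 GAAA blocks with 2 bases between them, was searched on both strands. It was found in the promoters of 3 genes, Slfn5, Slfn8 and Slfn9, which are the members of the long group, against 3.44% of all 32851 promoter entries. The GAS core, TTC and GAA with 3 bases between them, was searched likewise and found in 0 of the 7 genes, against 8.3% of entries. Slfn8 and Slfn9 are neighbouring paralogs, so their ISRE matches are not independent, and a match of letters is a description and not a shown site. The stretches below show the ISRE match in capitals, with the stretch next to the start of Slfn2, the most abundant member, in which the ISRE letters did not occur. The 1 entry for Slfn5 starts inside the span that RefSeq gives the gene, not at its outer end. They run 5′ to 3′ on the strand of the gene and cover chr11:82951902-82952001 for Slfn5 (200 to 101 bases before the start), chr11:83020811-83020910 for Slfn8, chr11:82991831-82991930 for Slfn9 and chr11:83065012-83065111 for Slfn2 (each 100 to 1 bases before the start).
Slfn5: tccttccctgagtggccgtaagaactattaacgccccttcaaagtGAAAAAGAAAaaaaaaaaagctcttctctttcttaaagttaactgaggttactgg
Slfn8: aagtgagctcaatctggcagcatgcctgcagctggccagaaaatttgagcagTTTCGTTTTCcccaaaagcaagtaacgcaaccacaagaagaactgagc
Slfn9: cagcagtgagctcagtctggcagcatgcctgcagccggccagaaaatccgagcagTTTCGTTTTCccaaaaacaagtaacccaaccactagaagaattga
Slfn2: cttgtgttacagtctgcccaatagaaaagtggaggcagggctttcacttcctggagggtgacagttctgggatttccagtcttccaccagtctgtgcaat
In Slfn8 and Slfn9 the match lies on the strand opposite to the gene, and in Slfn5 on the strand of the gene. It is 155 bases before the start in Slfn5 and 45 in Slfn9. In Slfn8 it is 48 bases before the outer of the 2 starts, the one used for the stretch above, and 136 before the other. The longest run of bases shared exactly by the Slfn8 and Slfn9 stretches is 20 bases.

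Library totals ranged from 15545190 to 15728400 counts with HTR2C-positive medium and from 12843971 to 16031723 with HTR2C-negative medium. Library P1 stood apart in the number of genes with at least 1 count, 13179, against 12147 to 12638 in the other 5. The macrophage markers Adgre1, Itgam, Csf1r, Lyz2, Cd68 and Mertk were all detected, with a summed level of 18656 to 21909 CPM with HTR2C-positive and 19333 to 21572 CPM with HTR2C-negative medium. Schlafen genes are also transcribed in lymphocytes, whose markers were near 0. The 6 T cell markers in the table summed to 13.0 to 19.5 CPM with HTR2C-positive and 16.3 to 19.1 CPM with HTR2C-negative medium. Most of it came from the kinase gene Lck. Cd3e, the gene of a CD3 chain of the T cell receptor complex, averaged 0.019 CPM with HTR2C-positive and 0.023 CPM with HTR2C-negative medium. The 5 B cell markers summed to 2.06 to 2.71 CPM with HTR2C-positive and 1.08 to 2.03 CPM with HTR2C-negative medium. The 4 NK cell markers summed to at most 0.799 CPM with HTR2C-positive and 0.605 CPM with HTR2C-negative medium, with Klrb1c at 0 counts. The 4 dendritic cell markers summed to 1.48 to 1.99 CPM with HTR2C-positive and 0.688 to 1.55 CPM with HTR2C-negative medium. The 5 alveolar macrophage markers summed to 65.4 to 77.9 CPM with HTR2C-positive and 64.8 to 82.8 CPM with HTR2C-negative medium, most of it Marco, which BMDMs can also express. The 8 neutrophil markers summed to 980 to 1225 CPM with HTR2C-positive and 811 to 1014 CPM with HTR2C-negative medium, led by S100a8, while Ly6g and Cxcr2 had 0 counts in all libraries. Of the 6 neutrophil markers tested, 0 passed the correction in edgeR, but all 6 had positive log2 fold changes for HTR2C-positive over HTR2C-negative medium (median 0.45). For 2 of them, S100a9 (0.36) and Camp (0.53), the unadjusted p was under 0.05, against 7.9% of all tested genes that were higher at that threshold. The part of these cells' transcripts in the Schlafen values was not tested. In bulk samples, fewer cells of a type and less RNA per cell cannot be told apart.

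The macrophages held abundant Schlafen transcripts with either medium. Levels between genes are given as deposited FPKM values, the count scaled to gene length and library total. Slfn2, in which an inactivating mutation in mice leaves T cells and monocytes unable to survive activation, had the highest FPKM of the 7 in every library. It was at 636, 276 and 298 FPKM in P1, P2 and P3 and at 206, 387 and 239 FPKM in N1, N2 and N3. Its mean over the 6 libraries, 340 FPKM, exceeded that of 98.7% of the tested genes.

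Next came 4 genes with means so close that their order changed from library to library. Slfn1, which slows growth when expressed in T cells, averaged 108 FPKM over the 6 libraries, Slfn8, a tRNA- and rRNA-cutting nuclease of the long group, 104 FPKM, Slfn5, 101 FPKM, and Slfn4, which is induced when macrophages are activated, 83.4 FPKM. Slfn5 was the second of the 7 in P1 and N2 but the fifth in N1 and N3, while Slfn4 was the fourth or the fifth in each library. Slfn1 averaged 106 ± 20.0 FPKM with HTR2C-positive and 111 ± 6.40 FPKM with HTR2C-negative medium (SD, n = 3 each). Slfn8 averaged 106 ± 16.3 FPKM with HTR2C-positive and 102 ± 6.80 FPKM with HTR2C-negative medium. Slfn5 averaged 116 ± 36.0 FPKM with HTR2C-positive and 87.1 ± 26.3 FPKM with HTR2C-negative medium. For Slfn4 the means were 83.5 ± 4.97 FPKM with HTR2C-positive and 83.3 ± 7.05 FPKM with HTR2C-negative medium. Neighbours in this order thus did not differ beyond their spread, although within every library Slfn4 was below both Slfn1 and Slfn8.

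Slfn9, the neighbouring paralog of Slfn8, and Slfn3, the neighbouring paralog of Slfn4, were lower by a wide gap. Slfn9 averaged 12.1 ± 1.46 FPKM with HTR2C-positive and 10.2 ± 1.75 FPKM with HTR2C-negative medium, and Slfn3, which has been studied in the differentiation of gut epithelium, 7.17 ± 1.36 FPKM with HTR2C-positive and 8.79 ± 1.04 FPKM with HTR2C-negative medium (SD, n = 3 each). Slfn9 exceeded Slfn3 in 5 of the 6 libraries, while in N1 they were at 8.24 and 8.26 FPKM. Each of the short, intermediate and long groups therefore held an abundant member, and the intermediate and long groups also one that was low beside its paralog. By mean FPKM over the 6 libraries, Slfn9 still exceeded 76.8% and Slfn3 72.2% of the tested genes. Among family rows outside the 7, Slfn14 had 6 counts in P2, 4 in N1 and 0 in the other 4 libraries, and Slfnl1 on chromosome 4 had 0 in all 6.

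**Figure D1:**
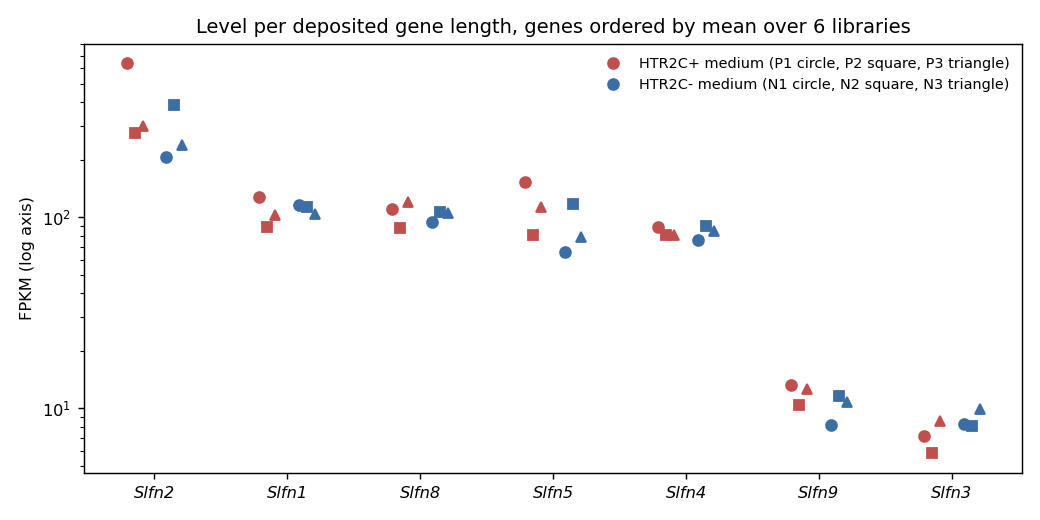
Deposited FPKM of each Schlafen gene in each library on a log axis, HTR2C-positive medium left of HTR2C-negative medium within a gene, genes ordered by their mean over 6 libraries. Slfn2 is the highest in every library, 4 genes between 65.7 and 153 FPKM overlap each other, and Slfn9 and Slfn3 are at or below 13.2 FPKM.

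The family as a whole took 0.317%, 0.190% and 0.232% of all counts in P1, P2 and P3 and 0.174%, 0.248% and 0.195% in N1, N2 and N3, with overlapping groups. Slfn2 alone supplied 56.0%, 43.8% and 40.6% of the summed FPKM of the family with HTR2C-positive medium and 35.9%, 46.4% and 37.8% with HTR2C-negative medium. The makeup of the family therefore varied as much between libraries of 1 group as between the groups.

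Between the media, 0 of the 7 Schlafen genes passed the correction over all genes. Counts were compared with edgeR's quasi-likelihood test, with Benjamini-Hochberg adjusted p-values over all 10177 tested genes and a threshold of 0.05, and a positive log2 fold change means a higher value with HTR2C-positive medium. The background was also 0 genes (0%), although 16.6% (1690 genes) were under 0.05 before adjustment, with 804 of them higher (7.9%) and 886 lower (8.71%). At that unadjusted threshold 1 of the 7 members, Slfn3, was lower and 0 were higher. DESeq2, an alternative tool, gave 394 genes with an adjusted p under 0.05 and limma-voom 0, and in both 0 were Schlafen genes while Slfn3 alone had an unadjusted p under 0.05. Of the 7 fold changes, 3 were positive and 4 negative, with a median of -0.088 on the log2 scale, beside a median of 0.020 over all tested genes. With libraries scaled to total counts alone 5 were positive, and in a fit that removed each library's trend of counts with GC content and gene length 6 were. The groups did not overlap in 1 of the 7, Slfn4, against 2274 (22.3%) of all tested genes, so neither count stands out from the background.

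**Figure D2:**
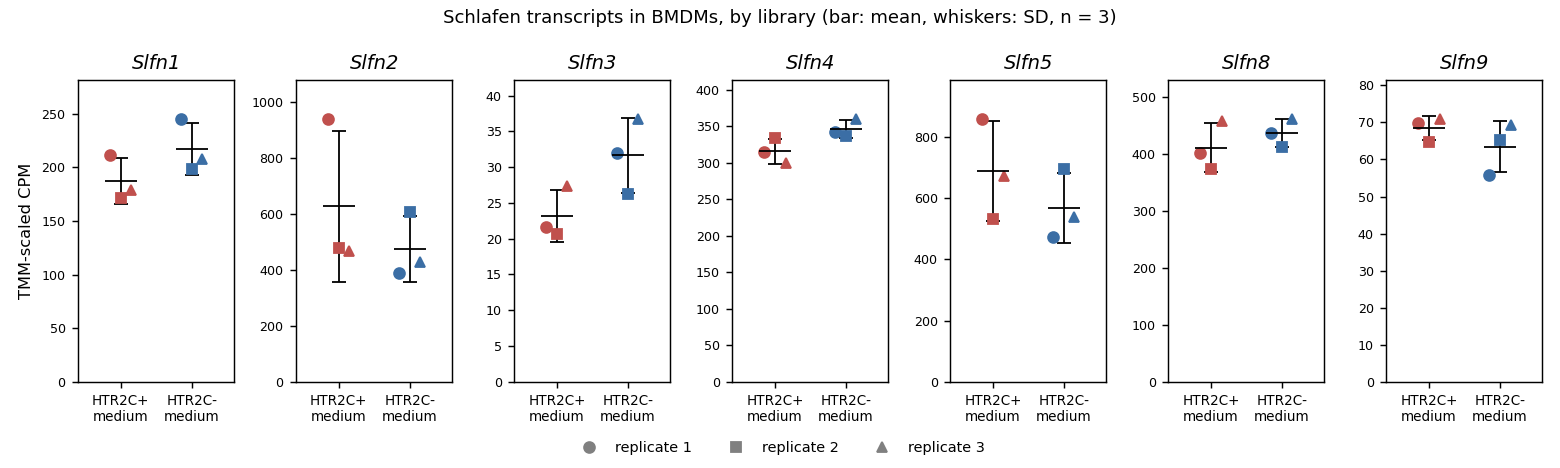
TMM-scaled CPM of the 7 Schlafen genes in each library, HTR2C-positive medium on the left and HTR2C-negative medium on the right of each panel, with mean and SD (n = 3 each) and symbols for the replicate numbers of the titles. P1 lies apart from P2 and P3 in Slfn2, at 940 against 478 and 466 CPM, and the groups are separate only in Slfn4.

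In the short group, Slfn2 was at 940, 478 and 466 CPM in P1, P2 and P3, against 389, 608 and 428 CPM in N1, N2 and N3 (CPM, counts scaled to the library total with TMM factors). P1 was the highest of all libraries, N2 the next, and the groups overlapped. The log2 fold change was 0.40 (SE 0.26, 95% interval -0.16 to 0.96, edgeR adjusted p = 0.454). It depended on P1 and on N2: without P1 it was 0.011 (edgeR adjusted p = 0.984), and without N2 it was 0.62 (edgeR adjusted p = 0.202). Slfn1 was at 212, 172 and 179 CPM with HTR2C-positive and at 245, 199 and 208 CPM with HTR2C-negative medium. P1 was above both N2 and N3 and the groups overlapped, with a log2 fold change of -0.21 (SE 0.15, 95% interval -0.55 to 0.12, edgeR adjusted p = 0.507). It was 0.011 in the fit without the GC and length trend.

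In the intermediate group, Slfn3 was at 21.6, 20.6 and 27.4 CPM in P1, P2 and P3, against 32.0, 26.2 and 36.7 CPM in N1, N2 and N3. The groups overlapped, since P3 was above N2. Its log2 fold change of -0.45 was the largest of the 7 in size (SE 0.19, 95% interval -0.86 to -0.035, unadjusted p = 0.0355 and adjusted p = 0.266 in edgeR). Without the GC and length trend it was -0.25 (edgeR adjusted p = 0.695), and with 1 library left out the unadjusted p was 0.0164 (without N2) to 0.188 (without N3). Slfn4 was at 314, 334 and 299 CPM with HTR2C-positive and at 342, 337 and 360 CPM with HTR2C-negative medium. All 3 values of HTR2C-positive medium were below those of HTR2C-negative medium, though P2 and N2 lay close together. The log2 fold change was -0.13 (SE 0.14, 95% interval -0.43 to 0.17, edgeR adjusted p = 0.669), an interval of 0.740-fold to 1.12-fold. Scaling to total counts alone gave 0.0032, beside a shift of 0.14 in the median of all genes, and the fit without the GC and length trend gave 0.065.

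In the long group, Slfn5 was at 859, 534 and 674 CPM in P1, P2 and P3, against 472, 696 and 539 CPM in N1, N2 and N3. As in Slfn2, P1 was the highest library, N1 the lowest, and N2 the highest of its group, and the groups overlapped. The log2 fold change was 0.28 (SE 0.20, 95% interval -0.16 to 0.71, edgeR adjusted p = 0.514). It was 0.10 without P1 and 0.45 without N2 (edgeR adjusted p = 0.235). Slfn8 was at 402, 374 and 459 CPM with HTR2C-positive and at 437, 413 and 461 CPM with HTR2C-negative medium, with overlapping groups. Its log2 fold change was -0.088 (SE 0.15, 95% interval -0.41 to 0.23, edgeR adjusted p = 0.803), and it turned to 0.056 with total counts alone and to 0.093 without the GC and length trend. Slfn9 was at 69.9, 64.9 and 70.9 CPM in P1, P2 and P3, against 55.8, 65.3 and 69.2 CPM in N1, N2 and N3. The groups overlapped, and the log2 fold change was 0.11 (SE 0.15, 95% interval -0.21 to 0.43, edgeR adjusted p = 0.747), and 0.29 in the fit without the GC and length trend.

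**Figure D3:**
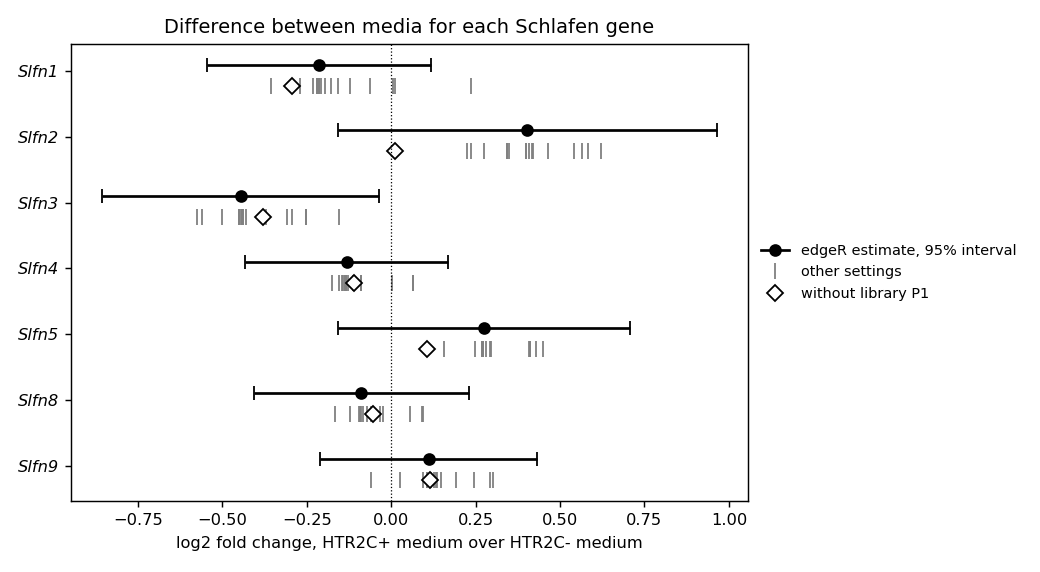
Log2 fold change of each Schlafen gene, HTR2C-positive over HTR2C-negative medium, with its 95% interval (black), the values under the other settings (grey ticks) and the value without library P1 (diamond). The interval includes 0 for all genes but Slfn3 before correction, and Slfn2 is at 0.011 without P1.

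Members differed in how closely the libraries of a group agreed. The within-group SD of log2 CPM was 0.47 for Slfn2 and 0.32 for Slfn5, above the median of 0.30 over all tested genes. It was 0.066 for Slfn4, lower than in all but 1.02% of the tested genes, and 0.12 for both Slfn8 and Slfn9. Slfn1 and Slfn3 lay between, at 0.16 and 0.23. Most tested genes had lower levels than these 7: even Slfn3, the lowest, exceeded 72.2% of them in mean FPKM. No set of genes of like level was compared, so these places among all tested genes may in part reflect level. The highest library of Slfn2 was 2.02 times the lowest with HTR2C-positive medium and 1.56 times with HTR2C-negative medium, while for Slfn4 these ratios were 1.11 and 1.07.

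Reads that fit more than 1 gene could be split between rows in a way that the sources used here do not give. Of the 50-base windows in the GENCODE M21 transcripts of each gene, 15.6% of those of Slfn3, 14.6% of Slfn8, 11.5% of Slfn9 and 10.8% of Slfn4 also occurred exactly in a transcript of another gene. The share was 4.27% for Slfn2, 3.37% for Slfn5 and 0.606% for Slfn1. These shares count matches to any gene and not to paralogs alone. Of the 531 shared windows of Slfn3, 252 occurred in Slfn4 and 5 in Slfn1. The 213 shared windows of Slfn5 were all shared with genes outside the family. Slfn8 shared 10.1% of its windows with the pseudogene Slfn10-ps and 9.30% with Slfn9, and Slfn3 shared 7.39% with Slfn4. The rarer gene of a pair can be affected by more than its own share of windows. Slfn4, with 3864 to 5504 counts a library, shared 6.28% of its windows with Slfn3, which had 312 to 546 counts, and Slfn8, with 4946 to 7589 counts, is the partner of Slfn9, which had 631 to 1225. The counts of these genes, Slfn3 and Slfn9 above all, are therefore uncertain. RefSeq also places a long noncoding RNA gene, Slfn5os, on the strand opposite to Slfn5 and over part of it. The use of strand in counting is not given, so reads of this pair cannot be told apart.

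Counts of 3 pairs of members were also summed, the pair of Slfn1 and Slfn2 for their shared short group and not for shared windows, of which they had none. Windows shared with genes outside a pair are not covered by its sum. No difference of a sum between the media passed. Slfn3 and Slfn4 together had a log2 fold change of -0.16 (edgeR adjusted p = 0.601), Slfn8 and Slfn9 together one of -0.061 (edgeR adjusted p = 0.867) and Slfn1 and Slfn2 together one of 0.24 (edgeR adjusted p = 0.620). Ratios of 2 genes in the same library do not depend on scaling. The count ratio of Slfn2 to Slfn1 was 4.44, 2.79 and 2.61 in P1, P2 and P3 and 1.59, 3.06 and 2.06 in N1, N2 and N3 (log2 difference 0.57, exact two-sided permutation p = 0.3). The ratio of Slfn3 to Slfn4 was 0.0689, 0.0619 and 0.0915 in P1, P2 and P3, against 0.0937, 0.0778 and 0.102 in N1, N2 and N3 (-0.31, exact permutation p = 0.2). That of Slfn9 to Slfn8 was 0.174, 0.174 and 0.155 in P1, P2 and P3, against 0.128, 0.158 and 0.150 in N1, N2 and N3 (0.21, exact permutation p = 0.2). All 3 had overlapping groups and an adjusted p of 0.3 over the 3 exact tests, in a design whose smallest possible p is 0.1.

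Slfn2 and Slfn5 were each highest in P1 and, among the libraries with HTR2C-negative medium, in N2, which was not so for any of the other 5. Likeness was measured as the root mean square difference of log2 CPM over the 6 libraries, each gene centred on its own mean, among 5245 candidates averaging 10 CPM or more. The genes most like Slfn2 were Cmtm6 (0.055), a membrane protein gene that stabilises PD-L1, and Irf7 (0.067), the interferon regulatory factor that drives type I interferon genes. Irf7 was at 1061, 541 and 478 CPM in P1, P2 and P3, against 395, 629 and 438 CPM in N1, N2 and N3, with P1 and N2 the highest libraries as for Slfn2. The genes most like Slfn5 were Gbp5 (0.031), an interferon-induced guanylate-binding protein gene, and Dennd1c (0.055). Gbp5 was at 217, 136 and 169 CPM in P1, P2 and P3, against 127, 177 and 139 CPM in N1, N2 and N3. High values in P1 and N2 were not particular to Schlafen or interferon genes. The macrophage marker Adgre1 was at 1846, 897 and 922 CPM in P1, P2 and P3, against 1095, 1694 and 1073 CPM in N1, N2 and N3. Lyz2 had the same highest libraries, while Itgam, Csf1r, Cd68 and Mertk did not. The share of all tested genes with this pattern was not computed.

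Slfn2 and Slfn5 differed from each other by 0.20 on this measure, with 2.10% of the tested genes nearer to Slfn2 than Slfn5 was. Slfn5 was nearly as close to Slfn9, at 0.23, while Slfn2 was 0.38 from Slfn9. The least unlike pair of members was Slfn4 and Slfn8, at 0.13, followed by Slfn8 and Slfn9, at 0.15. For genes that vary little, such as Slfn4, a small difference is common: 6.73% of the tested genes were nearer to Slfn4 than Slfn8 was. The most alike genes of the others were Acadm (Slfn1), Sec63 (Slfn3), Rassf1 (Slfn4), Btk (Slfn8) and Cat (Slfn9). With 6 libraries these likenesses describe the libraries and have no test.

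**Figure D4:**
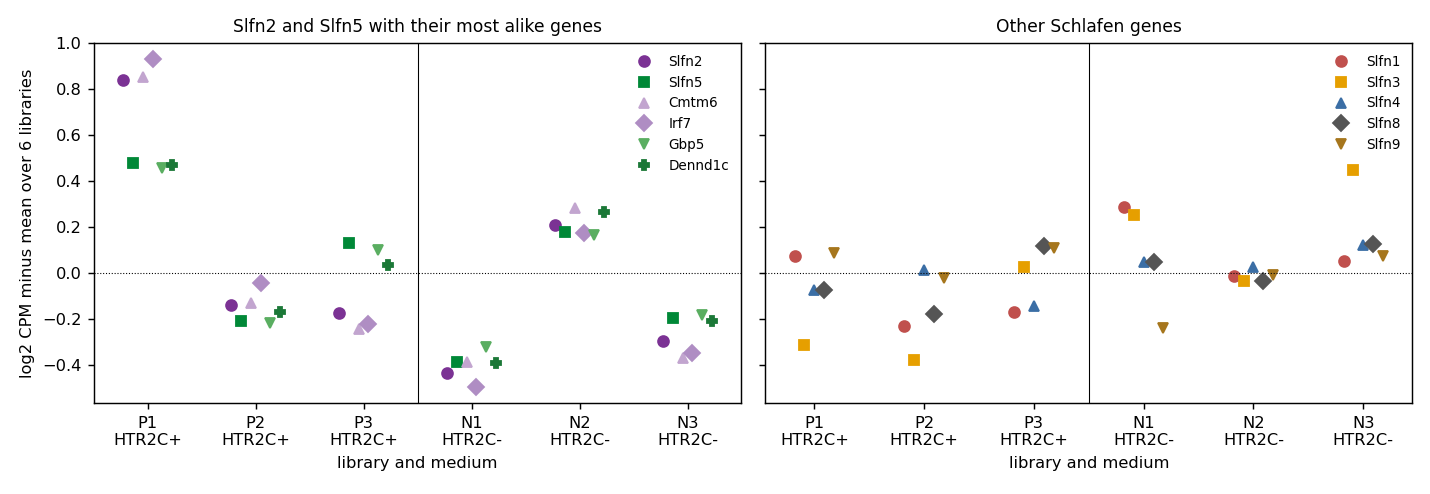
Log2 CPM of each gene minus its mean over the 6 libraries, HTR2C-positive medium left of the line and HTR2C-negative medium right of it, for Slfn2 and Slfn5 with the 2 genes most like each (left) and for the other Schlafen genes (right). Slfn2, Slfn5 and the genes like them have their highest value in P1 and N2 is the highest library of its group, a pattern not seen in the panel on the right.

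Of the genes of interferon signalling, 0 of 15 tested passed the correction in edgeR. Before adjustment, 4 had a p under 0.05 and were higher (against 7.9% of all tested genes) and 1 was lower (against 8.71%), with a median log2 fold change of 0.19. Socs1, an inhibitor of the JAK kinases, was at 43.6, 15.9 and 13.4 CPM in P1, P2 and P3, against 10.3, 12.2 and 7.53 CPM in N1, N2 and N3. P1 stood far above the rest. The log2 fold change was 1.28 (edgeR adjusted p = 0.139) and 0.57 without P1. The kinase gene Tyk2, which acts at the type I interferon receptor, was at 25.2, 16.4 and 21.6 CPM in P1, P2 and P3, against 9.90, 15.8 and 11.2 CPM in N1, N2 and N3 (0.77, edgeR adjusted p = 0.142). Irf9, the DNA-binding part of the factor that binds the ISRE, was at 130, 104 and 104 CPM in P1, P2 and P3, against 164, 147 and 139 CPM in N1, N2 and N3 (-0.41, edgeR adjusted p = 0.212). Irf1 was at 137, 151 and 155 CPM in P1, P2 and P3, against 106, 105 and 127 CPM in N1, N2 and N3 (0.39, edgeR adjusted p = 0.216). These 4 genes have the smallest p of the list, and the groups did not overlap in any of them. Over the list the groups did not overlap in 7 of the 15 tested genes, against 22.3% of all tested genes. In the fit without the GC and length trend the values were 0.81 for Socs1, 0.34 for Tyk2, -0.51 for Irf9 and 0.19 for Irf1. Without both N2 and P1, the most alike libraries of different groups in earlier results of these data, 2 of the 15 genes, Tyk2 and Irf9, passed the correction (edgeR adjusted p = 0.0166 and 0.00933), against 10.9% of all genes tested in that setting (1107 of 10156). Socs1 was at 0.74 there and did not pass (edgeR adjusted p = 0.0699). N2 and P1 were picked from these same data for their likeness across groups, so leaving them out tends to widen group differences. The adjusted p-values of that setting are therefore a description and no support for a difference.

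The list of genes for tRNA cleavage and protection and the response to stalled ribosomes had 0 of 10 tested members past the correction in edgeR, with 2 higher (against 7.9% of all tested genes) and 0 lower (against 8.71%) at an unadjusted p under 0.05. Their median log2 fold change was 0.25. Eif2ak4, the kinase that senses uncharged tRNA, averaged 1.91 ± 0.868 CPM with HTR2C-positive and 0.597 ± 0.334 CPM with HTR2C-negative medium (SD, n = 3 each, log2 fold change 1.69, edgeR adjusted p = 0.204), at levels of few counts. Atf4, the transcription factor that acts downstream of it, averaged 53.9 ± 6.59 CPM with HTR2C-positive and 42.7 ± 1.64 CPM with HTR2C-negative medium (0.34, edgeR adjusted p = 0.299, and 0.069 without the GC and length trend). Nsun2, a tRNA methyltransferase gene, averaged 21.7 ± 0.592 CPM with HTR2C-positive and 17.2 ± 0.631 CPM with HTR2C-negative medium (0.33, edgeR adjusted p = 0.347). Elac2, which trims tRNA ends, averaged 2.58 ± 1.03 CPM with HTR2C-positive and 1.27 ± 0.655 CPM with HTR2C-negative medium (1.00, edgeR adjusted p = 0.355). Ang, the ribonuclease gene from whose product Slfn2 protects tRNA in mouse T cells, averaged 0.697 CPM with HTR2C-positive and 0.617 CPM with HTR2C-negative medium.

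Around the cluster, within 500 kb on either side, 23 other genes of the table are considered here and 15 were tested. Of these, 0 had an unadjusted p under 0.05 in edgeR, against 16.6% of all tested genes. Their log2 fold changes had a median of 0.020 and a range from -0.46 (Heatr9) to 0.75 (Rad51d). Beyond the end of the cluster lie chemokine genes. Ccl5 averaged 11269 CPM with HTR2C-positive and 10022 CPM with HTR2C-negative medium (log2 fold change 0.17, SE 0.18), and Ccl4 averaged 4849 CPM with HTR2C-positive and 3870 CPM with HTR2C-negative medium (0.33, SE 0.24). Along the cluster the signs were mixed. Slfn9 (0.11), Slfn8 (-0.088), Slfn2 (0.40) and Slfn1 (-0.21) follow each other with alternating signs, while Slfn1, Slfn4 and Slfn3 at the end all had negative values that did not pass the correction, though Slfn8, Slfn1 and Slfn4 were positive without the GC and length trend.

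**Figure D5:**
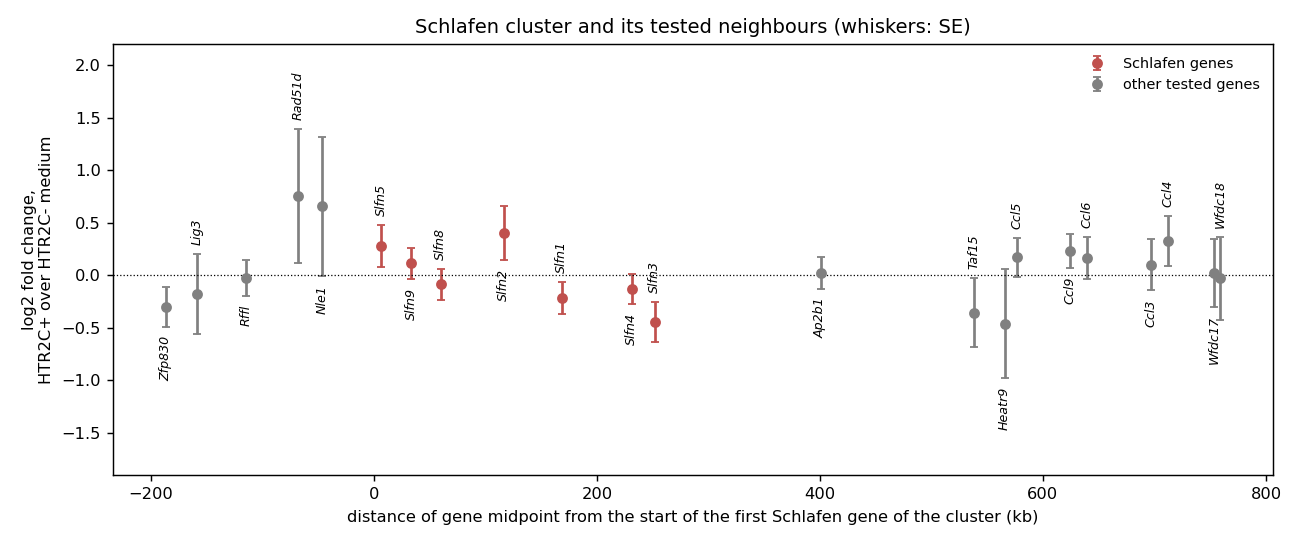
Log2 fold change, HTR2C-positive over HTR2C-negative medium, with SE, of the 7 Schlafen genes (red) and 15 other tested genes (grey) by distance from the start of the first Schlafen gene. The SE is about 0.14 to 0.26 for the Schlafen genes, and the 3 largest SEs in the plot belong to Nle1, Rad51d and Heatr9, which had few counts.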

How the data were processed

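The deposited table lists 21959 Ensembl genes, with 1 read count and 1 FPKM value per gene in each of 6 libraries. Per the file headers the counts are reads per gene without normalization, and the deposited FPKM values equal the count per gene length and library total (largest relative difference 3.80e-07). Per the submitters' processing notes, fastp, HISAT2, StringTie, edgeR and GRCm39 were used, without versions; per the labels' protocols, RNA was extracted with Trizol. How reads were counted is not given in the sources used here. Counts were analysed with edgeR 4.0.16 in R 4.3.3 (filterByExpr, TMM factors, robust quasi-likelihood F test, no covariates), after a check on simulated counts. CPM values are TMM-scaled. A count of 0 allows up to 3 counts, or 0.187 to 0.234 CPM, for counting error only. Member counts ranged from 312 to 16476 per library. GC content came from GENCODE M21 transcripts (21851 genes) and promoters from RefSeq. Genes named beyond the 7 are the 4 of each list with the smallest p, the neighbours and the most alike genes, with others named for contrast after their values were seen. Of the neighbours, 1 gene is not reported here. The members and lists were chosen with earlier results of these data known. Alternatives were RLE factors, total counts, 2 other filters, limma-voom (limma 3.58.1), DESeq2 1.42.0, libraries left out, a block on replicate numbers, removal of the GC and length trend (splines with 5 degrees of freedom), and summed paralogs.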

Additional observations from a re-analysis of the deposited data

How the results depend on the processing

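None of the 7 genes passed an adjusted p of 0.05 in edgeR's fit or under any alternative run, and the lowest adjusted p of a member was 0.0818 (Slfn1, without both N2 and P1). Those 2 libraries were picked from these data for their likeness across groups, so leaving them out tends to widen group differences. Slfn2, Slfn3 and Slfn5 kept their signs throughout. With libraries scaled to total counts alone, the median of all genes moved by 0.14, and Slfn4 (0.0032) and Slfn8 (0.056) turned positive, with a member median of 0.056, all below that shift. With the GC and length trend removed, Slfn1 (0.011), Slfn4 (0.065) and Slfn8 (0.093) turned positive (member median 0.093), and with the replicate block in the same fit they were 0.0053, 0.064 and 0.090 (member median 0.090); all 7 lengths and GC values were available. Summed with Slfn8, Slfn9 turned to -0.061, and summed with Slfn2, Slfn1 turned to 0.24, as the more abundant partner sets the sum. Members with an unadjusted p under 0.05 numbered 0 with total counts and with the trend removed, with or without the block, 2 without a count filter, 2 without both N2 and P1, and 0 to 3 with 1 library left out, beside 1 in edgeR's fit. The whole table had 2107 of 14861 genes under that threshold without a count filter and 2433 of 10156 without both N2 and P1. The 3 members were seen without N2, where 2097 of 10477 genes were under it. Over all genes, 422 passed the adjusted threshold without a count filter, 394 with DESeq2, 1107 without both N2 and P1, and 0 to 206 with 1 library left out (206 without N2, 186 without P1); at the unadjusted threshold 847 (without N1) to 2097 (without N2) did with 1 library left out, 1099 without N3, 998 with the trend removed and 638 with the block as well. Interferon pathway genes at that threshold numbered 2 to 6 with 1 library left out and 2 with the trend removed, with or without the block, beside 5. Their number was 6 without a count filter and 7 without both N2 and P1, settings whose counts over all genes are given above. Leaving out 1 library gave a member median of -0.12 to -0.025 and fold changes of -0.29 to -0.12 for Slfn1, 0.011 to 0.62 for Slfn2, -0.58 to -0.31 for Slfn3, -0.18 to -0.088 for Slfn4, 0.10 to 0.45 for Slfn5, -0.17 to -0.025 for Slfn8 and 0.025 to 0.19 for Slfn9. Same-numbered samples did not deviate together (correlations -0.152, -0.231 and 0.053), so the numbers were not taken as pairs, and not every sample was most like its own number; with the replicate block alone 0 genes passed, 1175 had an unadjusted p under 0.05, and 1 of these was a Schlafen gene. Except where construction explains them, the causes of these shifts were not tested. With 3 libraries a group, the precision of each difference is that of its interval.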
